A study of Mus musculus with 2 samples.

Results

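The 29 genes described here make cholesterol and fatty acids or steer that synthesis, and they were taken by symbol from the 32285 genes of the deposited tables, where all 29 have an entry. They comprise 19 enzymes of sterol synthesis, 6 enzymes of fatty acid synthesis and 4 regulators or carriers. Their unique molecular identifiers (UMIs, each standing for 1 captured RNA molecule) were summed over the cell barcodes of each marker-defined class and scaled to counts per 1000000 (CPM). The cells came from tumors grown from B16F10-OVALBUMIN/ VEGFC cells, a mouse melanoma line labelled for ovalbumin and VEGFC, a growth factor for lymphatic vessels. Each implant held 500K of these cells, placed within the skin, and tumors were taken on day 15. Live cells positive for CD31, an endothelial surface protein, and negative for CD45, a leukocyte protein, were sorted. One group of mice had the genotype Ifngr1iProx1 (Cre plus) and the other Ifngr1WT (Cre minus), so the groups share the tumor line and the sort and differ in the label for Cre. The Cre is named for Prox1, a transcription factor of lymphatic endothelium, and Ifngr1 encodes the ligand-binding chain of the interferon gamma receptor. The labels give no ages and do not say how Cre was switched on. Cells of 3 tumors were pooled into 1 library per genotype, which leaves no replicate and no test. Every interval below covers counting error within these 2 libraries and no difference between animals, tumors or sorts.

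Cells make cholesterol from acetyl-CoA through mevalonate, squalene and lanosterol, and fatty acids from the same precursor through malonyl-CoA. The genes of both routes are switched on by SREBP transcription factors, which leave the endoplasmic reticulum when sterol is scarce and are held there by INSIG proteins when it is plentiful. Endothelial cells can also take up cholesterol from lipoproteins, and lymphatic vessels carry lipids away from tissues.

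SREBPs are known to act on promoters together with the factors NF-Y and Sp1, so the letters upstream of the members were searched for 3 short motifs on both strands. These were CCAAT, the core of the NF-Y site, CACNCCAC, one form of the sterol element, and GGGCGG, the core of the Sp1 site, and none of them contains another. RefSeq promoter windows (build GRCm38.p6, from 250 bases before to 50 bases after a start) were found for 16 of the 19 sterol genes, 4 of the 6 fatty acid genes and 3 of the 4 regulators. Fdps, Fdft1, Sqle, Scd1, Scd2 and Stard4 had no entry. A gene was counted where any of its windows held the motif. CCAAT was held by 15 of the 16 sterol genes, against 41.1% of all 27025 genes in the table. It was there at least 2 times in 10 of the 16, against 13.3% of all genes. GGGCGG was in 14 of the 16, against 38.2%, and CACNCCAC in 2 of the 16, against 7.12%. Of the 4 fatty acid genes, Acly and Fasn held CCAAT and Acaca and Elovl6 did not. GGGCGG was in 1 of these 4, Acly, and CACNCCAC in 0. All 3 regulators with an entry held CCAAT and GGGCGG, and 1 of them, Insig1, held CACNCCAC.

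The 150 bases before the start are shown for 5 other sterol genes, for Acat2, the sterol gene without CCAAT, and for Elovl6. In the Malat1-rich lymphatic endothelial barcodes described below, Hmgcs1 and Idi1 lay near the median sterol ratio. Lss had the largest difference among the measured sterol genes there and is not shown. Capitals mark CCAAT and CACNCCAC on either strand, so that ATTGG is CCAAT read on the other strand. The windows lie at chr13:119690201-119690350 (plus strand), chr13:8885456-8885605 (plus), chr5:4104698-4104847 (minus), chr8:64733579-64733728 (minus), chrX:72918371-72918520 (plus), chr17:12960726-12960875 (minus) and chr3:129532236-129532385 (plus), in the order printed, each 5′ to 3′ on the strand of its gene.
Hmgcs1: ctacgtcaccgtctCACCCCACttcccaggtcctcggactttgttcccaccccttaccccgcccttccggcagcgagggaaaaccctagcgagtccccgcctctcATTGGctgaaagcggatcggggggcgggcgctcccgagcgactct
Idi1: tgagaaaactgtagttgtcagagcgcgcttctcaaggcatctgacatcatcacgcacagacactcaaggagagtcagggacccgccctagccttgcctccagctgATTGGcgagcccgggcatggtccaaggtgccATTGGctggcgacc
Cyp51: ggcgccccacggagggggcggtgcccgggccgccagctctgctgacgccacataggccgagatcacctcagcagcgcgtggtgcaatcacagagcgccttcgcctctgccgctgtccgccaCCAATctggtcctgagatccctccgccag
Msmo1: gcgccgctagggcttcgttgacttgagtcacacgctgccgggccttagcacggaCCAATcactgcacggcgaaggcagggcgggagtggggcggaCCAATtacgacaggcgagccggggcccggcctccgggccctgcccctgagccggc
Nsdhl: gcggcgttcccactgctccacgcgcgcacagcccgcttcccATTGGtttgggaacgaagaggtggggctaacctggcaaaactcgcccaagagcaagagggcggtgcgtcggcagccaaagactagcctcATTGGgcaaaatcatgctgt
Acat2: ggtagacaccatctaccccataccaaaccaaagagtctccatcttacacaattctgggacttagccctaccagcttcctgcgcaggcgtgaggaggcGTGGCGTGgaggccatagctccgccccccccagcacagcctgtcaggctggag
Elovl6: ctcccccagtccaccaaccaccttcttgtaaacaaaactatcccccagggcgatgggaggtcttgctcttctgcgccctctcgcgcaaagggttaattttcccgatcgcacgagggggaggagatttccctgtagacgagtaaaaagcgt
Idi1, Msmo1 and Nsdhl held 2 CCAAT motifs each within these 150 bases, Hmgcs1 and Cyp51 1 each, and Acat2 and Elovl6 none. A match is a description of the letters, and a missing match says only that the letters are not in this window.

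The Cre plus library held 2491 barcodes with 66704257 UMIs and the Cre minus library 2502 barcodes with 76967583 UMIs, and 1 barcode sequence occurred in both. After filtering, 1782 and 1552 barcodes were left. Although the sort was for endothelium, both libraries held many melanoma barcodes. Lymphatic endothelial barcodes (LEC-like) numbered 818 in Cre plus and 230 in Cre minus, blood endothelial barcodes (BEC-like) 209 and 232, and melanoma-like barcodes 491 and 826. In Malat1-rich LEC-like barcodes all 7 lymphatic markers were detected in both libraries, Prox1 among them. The class was chosen by these same markers, so their detection describes it and does not check it. Each class was split by Malat1, a nuclear RNA, at 0.1% of a barcode's UMIs, into a Malat1-rich stratum at or above this share and a Malat1-poor one below it. The libraries differed in this split. LEC-like barcodes were Malat1-rich in 443 of 818 cases in Cre plus and in 39 of 230 in Cre minus. The median depth of Malat1-rich LEC-like barcodes was 29208 UMIs for Cre plus and 18377 for Cre minus, and that of Malat1-poor ones 4966 and 5042. Ifngr1 itself was at 32.4 CPM in Cre plus against 82.3 CPM in Cre minus in Malat1-rich LEC-like barcodes, and its BEC-like levels were 193 and 173 CPM. Since the deleted part of the gene is not named in the labels, this 3′ tag does not check the genotype.

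In Malat1-rich lymphatic endothelial barcodes, both routes were lower in Cre plus than in Cre minus. The 19 sterol genes together were at 723 CPM (10070 UMIs) in Cre plus against 1354 CPM (1152 UMIs) in Cre minus, a log2 ratio of −0.91 (95% counting interval −0.99 to −0.82). The 6 fatty acid genes together were at 308 CPM (4284 UMIs) and 553 CPM (470 UMIs), a log2 ratio of −0.84 (−0.98 to −0.70). A gene was taken as measured with at least 50 UMIs over both libraries, which 18 of the 19 sterol genes reached. All 18 had a ratio below 0, with a median log2 ratio of −0.94, while the median over all 11049 measured genes was −0.09. Of the 18, 14 were more than 1.5-fold lower in Cre plus, against 16.5% of all measured genes, and none was more than 1.5-fold higher, against 12.0%. All 6 fatty acid genes were measured and below 0, with a median of −1.10, and 4 of them were more than 1.5-fold lower. Only 39 barcodes stand behind the Cre minus values, and a few deep barcodes carry much of them.

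**Figure D1:**
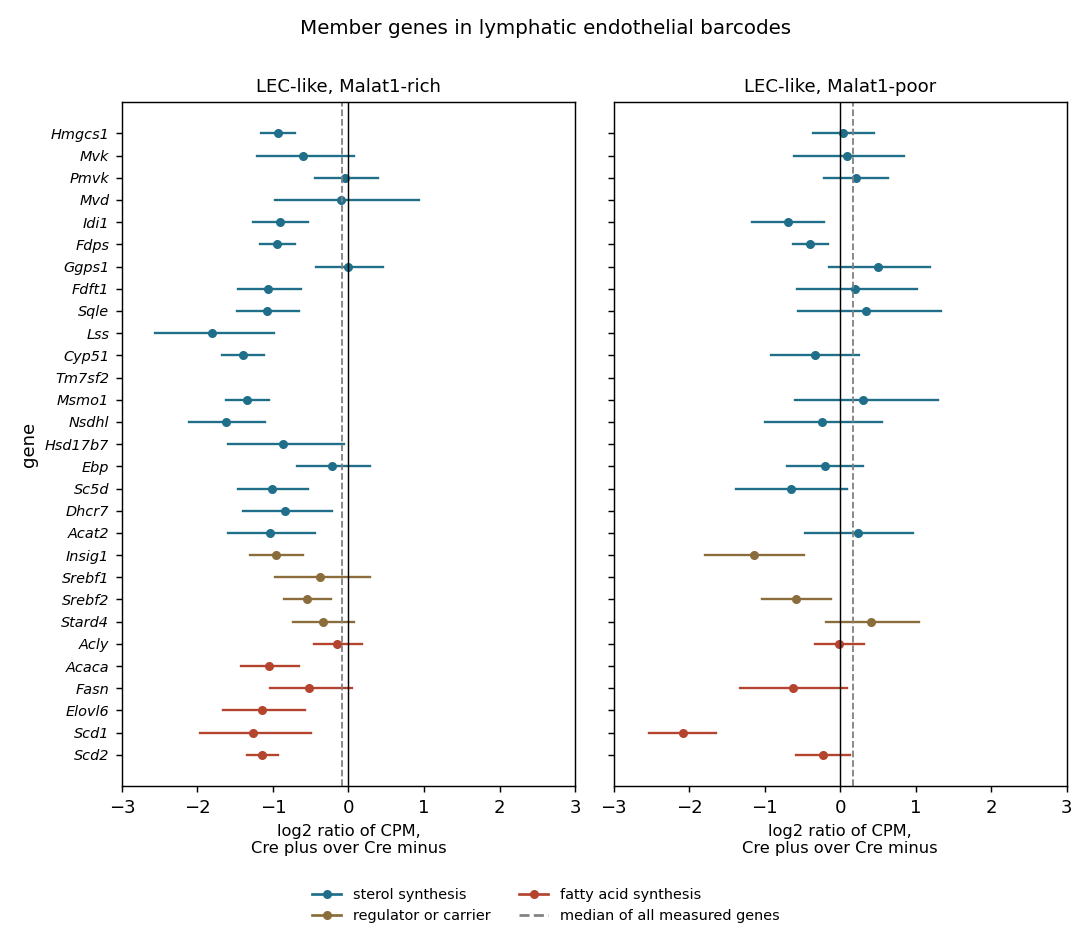
Log2 ratio of CPM, Cre plus over Cre minus, for each member in Malat1-rich (left) and Malat1-poor (right) LEC-like barcodes. Points are ratios of summed UMIs, bars are 95% counting intervals, the dashed line is the median of all measured genes, and members with under 50 UMIs have no point. In the left panel 28 members lie at or below 0, with sterol genes at a median of −0.94. In the right panel the sterol genes scatter around 0, and Scd1 lies apart at −2.08.

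Among the genes that lead from acetyl-CoA to farnesyl diphosphate, Hmgcs1, which makes HMG-CoA, was at 114 CPM (1593 UMIs) in Cre plus against 219 CPM (186 UMIs) in Cre minus, a log2 ratio of −0.93 (−1.15 to −0.71). Fdps, which makes farnesyl diphosphate, was at 108 and 208 CPM, a ratio of −0.94 (−1.17 to −0.71). Idi1, the isomerase that makes its building block, was at 44.5 and 83.5 CPM, a ratio of −0.91 (−1.27 to −0.53). These 3 enzymes were close to each other in the size of the difference. Acat2, the cytosolic thiolase at the entry of the route, had a ratio of −1.04 (−1.59 to −0.44). The 3 enzymes that phosphorylate and decarboxylate mevalonate did not follow with intervals off 0. Mvk had a ratio of −0.60 (−1.21 to 0.07), Pmvk −0.04 (−0.45 to 0.39) and Mvd −0.10 (−0.98 to 0.93). Ggps1, which leads away from sterols to the lipid anchors of proteins, was at 55.2 CPM in Cre plus against 55.3 CPM in Cre minus, and its interval ran from −0.43 to 0.46.

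The steps from squalene onwards held the 4 lowest ratios of the measured sterol genes, while Hsd17b7, Dhcr7 and Ebp differed less than Hmgcs1, Fdps and Acat2. Squalene is made by Fdft1, which was at 31.0 CPM in Cre plus against 64.7 CPM in Cre minus, a log2 ratio of −1.06 (−1.47 to −0.63). Sqle, the squalene epoxidase, was at 31.8 and 67.0 CPM, a ratio of −1.07 (−1.48 to −0.65). Lss, which closes the ring of lanosterol, rested on 84 and 18 UMIs and had a ratio of −1.81 (−2.56 to −0.99). Cyp51, which removes a methyl group from lanosterol, was at 56.0 and 148 CPM, a ratio of −1.40 (−1.68 to −1.12). Msmo1, the next oxidase in line, was at 55.0 and 140 CPM, a ratio of −1.35 (−1.63 to −1.06). Nsdhl, a dehydrogenase that works with Msmo1, was at 15.7 and 48.2 CPM, a ratio of −1.62 (−2.11 to −1.10). The 4 genes from Lss to Nsdhl were all more than 2-fold lower in Cre plus. Their partner Hsd17b7 had a ratio of −0.87 (−1.60 to −0.06), the desaturase Sc5d −1.02 (−1.46 to −0.54) and Dhcr7, the reductase of a last step, −0.83 (−1.40 to −0.22). Ebp, an isomerase between them, was at 39.4 and 45.9 CPM, a ratio of −0.22 (−0.69 to 0.29). Tm7sf2, a sterol reductase, had 38 and 8 UMIs and was not measured.

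Of the fatty acid enzymes, Scd2, a desaturase that makes oleic acid, was the most abundant in UMIs, with 1714 in Cre plus and 231 in Cre minus. It was at 123 and 272 CPM, a log2 ratio of −1.14 (−1.34 to −0.94). Acaca, which makes malonyl-CoA, was at 36.9 and 76.4 CPM, a ratio of −1.05 (−1.43 to −0.66). Elovl6, which lengthens palmitate, was at 18.1 and 40.0 CPM, a ratio of −1.14 (−1.66 to −0.58). Scd1, a second desaturase, had only 129 and 19 UMIs, and its ratio was −1.27 (−1.97 to −0.49). These 4 were lower, whereas the remaining pair had intervals that include 0. Fasn, the synthase that builds palmitate, had a ratio of −0.52 (−1.03 to 0.04), and Acly, which makes cytosolic acetyl-CoA from citrate, −0.15 (−0.46 to 0.18).

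The 4 regulators had a median log2 ratio of −0.46, with Insig1 past 1.5-fold. Insig1, itself a known SREBP target, was at 46.5 CPM in Cre plus against 90.5 CPM in Cre minus, a log2 ratio of −0.96 (−1.30 to −0.60). Srebf2, which encodes the SREBP of sterol synthesis, was at 76.5 and 112 CPM, a ratio of −0.55 (−0.85 to −0.23), short of 1.5-fold. Srebf1, which encodes the form tied to fatty acid synthesis, had a ratio of −0.37 (−0.98 to 0.29) and Stard4, a cholesterol carrier, −0.34 (−0.73 to 0.07).

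The wider pathway, a list of 46 further genes of sterol and fatty acid handling, had 42 measured genes in the same barcodes, with a median log2 ratio of −0.25. Of these, 13 were more than 1.5-fold lower, against 16.5% of all measured genes, and 1 was more than 1.5-fold higher, against 12.0%. Among the 13 were the desaturases Fads1, at 28.4 CPM in Cre plus against 61.1 CPM in Cre minus, a ratio of −1.11 (−1.53 to −0.66), and Fads2, with a ratio of −0.89 (−1.31 to −0.44). Mbtps1, Npc1, Soat1, Osbp, Acacb, Hsd17b12, Lpin1 and Tmem97 lay between −1.45 and −0.63. The 1 higher gene was Abca1, which exports cholesterol, at 80.5 CPM in Cre plus against 44.7 CPM in Cre minus, a ratio of 0.85 (0.38 to 1.36).

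Single barcodes showed how the summed values arose. Sterol genes together took a median of 5.88 of every 10000 UMIs in Malat1-rich LEC-like barcodes of Cre plus (lowest 0, highest 34.9, n = 443 barcodes). In Cre minus the median was 9.78 (lowest 0, highest 36.3, n = 39 barcodes). The ranges overlapped almost fully, and 26 of the 39 Cre minus barcodes lay above the Cre plus median. The upper quartile of Cre plus was 9.77, and 20 of the 39 Cre minus barcodes exceeded it (51.3%, exact Clopper-Pearson 95% interval 34.8 to 67.6%). For fatty acid genes the medians were 2.73 and 4.52 per 10000, and 21 of the 39 Cre minus barcodes exceeded the Cre plus upper quartile of 4.13.

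A few Cre minus barcodes weighed heavily in the sums. The deepest, with 139644 UMIs, held 16.4% of all UMIs of the group and 25.6% of its sterol UMIs. The 5 barcodes with most sterol UMIs held 46.6% of them, against 6.27% in Cre plus. The single top barcode held 40.1% of the Cre minus Fdps UMIs and 39.4% of those of Idi1. Without the deepest barcode of each group the sterol median was −0.82 with 10 of 18 genes past 1.5-fold, and the ratios of Fdps and Idi1 were −0.46 and −0.43. Leaving out the 5 barcodes with most member UMIs in each group gave a sterol median of −0.48 with 8 of 18 genes past 1.5-fold, and a fatty acid median of −0.65 with 3 of 6. These medians and ratios were all below 0. The share of 16.5% of all measured genes belongs to the full groups. No such share is given for the settings with barcodes left out, so their gene counts cannot be set against it. In that last setting the intervals of Fdft1 (ratio −0.38), Acat2 (−0.18) and Elovl6 (−0.46) included 0, and the ratio of Msmo1 was −0.64 and that of Scd2 −0.83. Acly, whose interval included 0 throughout, was at 0.31 there and at 0.04 without the deepest barcode. Hmgcs1, Lss, Cyp51, Nsdhl and Acaca stayed within their reported intervals in all 3 settings that left out barcodes, between −1.95 and −0.83. Other settings moved Hmgcs1 out of its interval, to −0.59 when thinned to 2000 UMIs and −1.40 between the depth quartiles of Cre minus. Thinned Cyp51 was at −2.70. After thinning, 20.7% of 421 Cre plus barcodes held Hmgcs1, against 21.6% of 37 Cre minus barcodes. These shares were 7.84% and 8.11% for Idi1, 6.18% and 29.7% for Cyp51 and 2.14% and 8.11% for Nsdhl. They were 6.18% and 8.11% for Acaca and 0% and 2.70% for Lss. With the 5 deepest barcodes of each group left out the sterol median was −1.03. Among barcodes between the depth quartiles of the Cre minus group (138 and 19 barcodes) it was −1.29 over 13 genes.

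**Figure D2:**
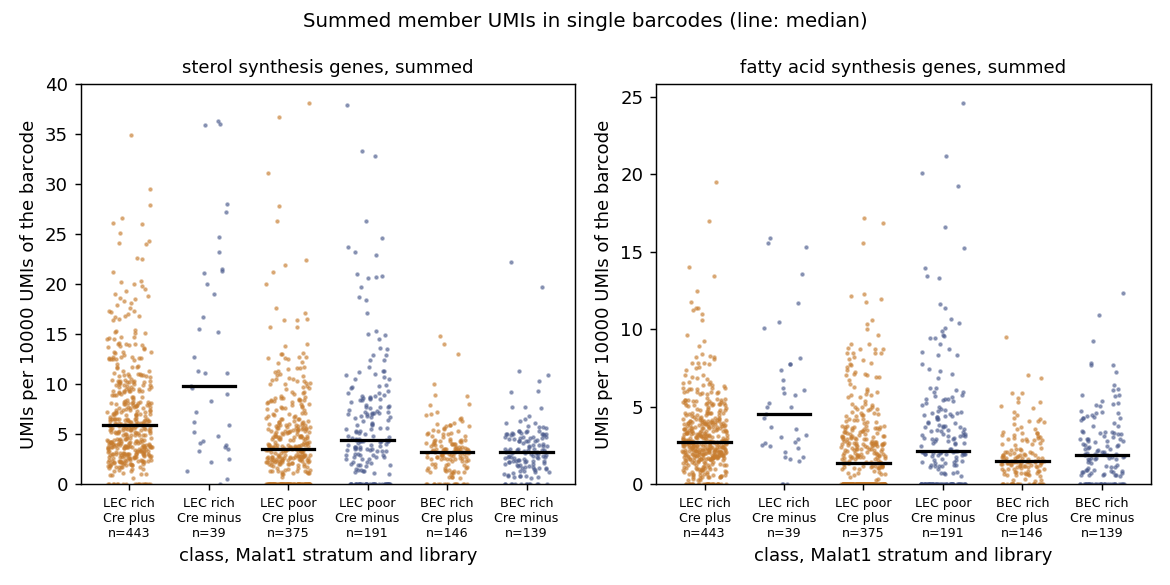
Summed UMIs of the 19 sterol genes (left) and the 6 fatty acid genes (right) per 10000 UMIs of each barcode, for Malat1-rich and Malat1-poor LEC-like and Malat1-rich BEC-like barcodes. Points are barcodes, black lines are medians. The Cre minus Malat1-rich LEC-like barcodes have a sterol median of 9.78 and the Cre plus ones of 5.88, with wide overlap.

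Markers of other cells moved with these differences in part. The 9 melanoma markers, all detected, summed to 56.3 CPM in Cre plus against 108 CPM in Cre minus in Malat1-rich LEC-like barcodes. That is 0.319% and 0.514% of their level in melanoma-like barcodes of the same library. At those shares, and with the profile of melanoma-like barcodes, melanoma RNA would carry 5.64 of the 723 CPM of sterol genes in Cre plus and 10.6 of the 1354 CPM in Cre minus. The choice of LEC-like barcodes capped the melanoma markers, so these shares were limited in advance. The part of melanoma RNA in the result was not tested. Red cell genes summed to 605 and 388 CPM. The 10 macrophage and monocyte markers summed to 35.5 CPM (9 detected, Adgre1 at 0) and 92.9 CPM (8 detected, Adgre1 and Fcgr1 at 0), and their part in the result was not tested. Adipocyte markers (Adipoq, Plin1, Cidec, Lep) and keratinocyte and sebocyte markers (Krt5, Krt14, Krt79, Mc5r) were all at 0 in Cre minus, and had 4 and 2 UMIs in Cre plus, with Adipoq, Lep, Krt5, Krt14 and Krt79 at 0. Cycling barcodes made up 27.8% of the Cre plus group and 25.6% of the Cre minus group.

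In Malat1-poor lymphatic endothelial barcodes the picture was different, with 1 gene, Scd1, far apart from the others. The sterol genes together were at 554 CPM (1568 UMIs) in Cre plus against 616 CPM (755 UMIs) in Cre minus, a log2 ratio of −0.15 (−0.28 to −0.03). Of the 19, 14 were measured, and their median ratio was 0.06, while the median of all 6167 measured genes was 0.17. The median and the sum thus differ in sign, and the median was below 0 in 8 of 14 alternative settings, down to −0.42 as a mean over barcodes. Of the 14, 2 were more than 1.5-fold lower, against 2.84% of all measured genes, and none was more than 1.5-fold higher, against 18.6%. The 2 were Idi1, at 33.2 and 53.8 CPM, with a ratio of −0.70 (−1.17 to −0.22), and Sc5d, with a ratio of −0.66 (−1.39 to 0.09). Fdps was at 148 and 195 CPM, a ratio of −0.40 (−0.63 to −0.16). Cyp51, Msmo1 and Nsdhl, 3 of the 4 sterol genes with the largest differences among Malat1-rich barcodes, had ratios of −0.34, 0.31 and −0.24 here, each with an interval that includes 0. The counts behind these 3 were small, at 14 to 40 UMIs in Cre minus. The difference between the strata itself was not tested.

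Insig1 and Srebf2 were lower in this stratum also. Insig1 was at 15.2 CPM in Cre plus against 33.4 CPM in Cre minus, a log2 ratio of −1.14 (−1.79 to −0.49), and Srebf2 at 38.2 and 57.1 CPM, a ratio of −0.58 (−1.03 to −0.13). Stard4 had a ratio of 0.41 (−0.19 to 1.04), and Srebf1 was not measured. Among the 29 measured genes of the wider pathway, with a median of 0.01, 1 was more than 1.5-fold lower, against 2.84% of all measured genes, and 8 were more than 1.5-fold higher, against 18.6%. The lower one was Npc2, a cholesterol carrier of the lysosome, at 128 and 223 CPM, a ratio of −0.80 (−1.04 to −0.57). Intervals off 0 were found for 5 of the 8, among them Elovl5 (ratio 1.35), Hacd2 (0.93), Insig2 (0.86) and Erg28 (0.73).

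Scd1 and Scd2 are neighbours on chromosome 19 (chr19:44394455-44407879, minus strand, and chr19:44293674-44306864, plus strand, build mm10) and code for similar enzymes. The sources used here do not give how reads that fit both were counted. Scd1 was at 23.7 CPM (67 UMIs) in Malat1-poor LEC-like barcodes of Cre plus and 100.3 CPM (123 UMIs) in those of Cre minus. The log2 ratio was −2.08 (−2.54 to −1.64), a level 4.24 times as high in Cre minus. Scd2 had a ratio of −0.23 (−0.59 to 0.14) in the same barcodes, Acly −0.01 (−0.33 to 0.32) and Fasn −0.62 (−1.32 to 0.10), and Acaca and Elovl6 were not measured. The 4 measured fatty acid genes had a median of −0.43. Of them 2, Scd1 and Fasn, were more than 1.5-fold lower, against 2.84% of all measured genes. The interval of Fasn includes 0.

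The Scd1 UMIs were spread over many barcodes. At least 1 was found in 49 of 375 barcodes (13.1%, exact 95% interval 9.83 to 16.9%) in Cre plus and in 65 of 191 (34.0%, 27.4 to 41.2%) in Cre minus. The top 5 barcodes held 22.4% and 26.0% of the UMIs. With every barcode thinned to 2000 UMIs, which left out 50 and 6 shallower ones, the shares were 5.85% (3.56 to 8.98%) and 18.9% (13.6 to 25.3%). In Malat1-poor BEC-like barcodes, with median depths of 3581 and 3824 UMIs, Scd1 was found in 1 of 63 in Cre plus and in 0 of 93 in Cre minus, which allows a share of up to 3.23%. The Scd1 level of Cre minus LEC-like barcodes, 100.3 CPM, was as high as that of Malat1-poor melanoma-like barcodes, 91.7 CPM, while melanoma markers stood at 0.651% of their melanoma level. If melanoma RNA entered at that share with the profile of melanoma-like barcodes, it would bring 0.597 CPM of Scd1. LEC-like barcodes were chosen with a cap on melanoma markers, so the share was limited in advance. Whether melanoma RNA or any other source brought the Scd1 UMIs was not tested. Red cell genes stood at 2348 and 1112 CPM and cycling barcodes made up 27.5% and 21.5% of the LEC-like group, and their part in the result was not tested. Across 15 alternative settings, one without cycling barcodes among them, the ratio lay between −2.79 and −1.81.

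Within each library, the Scd1 level in LEC-like barcodes was lower in the Malat1-rich than in the Malat1-poor stratum, at 9.27 against 23.7 CPM in Cre plus (log2 ratio −1.35, −1.79 to −0.91) and 22.3 against 100.3 CPM in Cre minus (−2.17, −2.95 to −1.46). Most genes took the other direction, with a median over all measured genes of 0.86 in Cre plus and 0.78 in Cre minus. The sterol genes had a median of 0.62 in Cre plus (18 measured) and 1.36 in Cre minus (13 measured). More than 1.5-fold higher in the Malat1-rich stratum were 9 of the 18 in Cre plus, against 59.7% of all measured genes, and 10 of the 13 in Cre minus, against 54.2%. Relative to the median of all genes the sterol median was −0.24 in Cre plus and 0.58 in Cre minus. Sqle was at 31.8 and 14.5 CPM in the 2 strata in Cre plus and at 67.0 and 11.4 CPM in Cre minus. Fdps did not share this direction in Cre plus, at 108 and 148 CPM, and was nearly level in Cre minus, at 208 and 195 CPM. Fatty acid genes had medians of 0.80 (6 measured) and 0.67 (5 measured).

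Blood endothelial cells normally lack Prox1 and came from the same sorts. In Malat1-rich BEC-like barcodes (146 in Cre plus, 139 in Cre minus) the sterol genes together were at 376 CPM and 446 CPM, a log2 ratio of −0.25 (−0.36 to −0.14). Of the 19, 15 were measured, with a median of −0.31 against −0.04 over all 9299 measured genes. The 3 that were more than 1.5-fold lower, against 8.85% of all measured genes, were Sqle at −0.71 (−1.30 to −0.12), Nsdhl at −0.72 (−1.44 to −0.01) and Sc5d at −0.76 (−1.40 to −0.13). Fdps, at 42.6 and 61.7 CPM, had a ratio of −0.54 (−0.86 to −0.21) and Hmgcs1, at 50.3 and 53.1 CPM, of −0.08 (−0.40 to 0.25). Here too 5 barcodes held 40.6% of the Cre minus sterol UMIs, and the median without the 5 barcodes with most member UMIs in each group was −0.13. Among barcodes between the depth quartiles of Cre minus (36 and 69), where 3 sterol genes were measured, it was −0.002. Medians per barcode were 3.26 and 3.19 per 10000 UMIs, nearly equal. Red cell genes stood at 1809 and 74.2 CPM and the 9 melanoma markers at 44.6 and 72.3 CPM in these barcodes, and their part in the result was not tested.

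Fatty acid genes in the same BEC-like barcodes had a median of −0.38 over 5 measured genes. Elovl6 was at 21.9 and 33.2 CPM, a ratio of −0.60 (−1.05 to −0.15), and Scd2 a ratio of −0.38 (−0.62 to −0.13). Acly went the other way, at 54.4 and 44.5 CPM, with an interval of −0.05 to 0.63. Srebf2 had a ratio of −0.41 (−0.77 to −0.05), while Insig1, Srebf1 and Stard4 had intervals that include 0. Malat1-poor BEC-like barcodes (63 and 93) had too few UMIs for lists, with 1 sterol gene and no fatty acid gene measured. Their red cell genes stood at 41500 and 150.4 CPM. Their summed sterol level was 320 CPM in Cre plus against 319 CPM in Cre minus.

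Melanoma-like barcodes descend from the implanted line, which does not carry the alleles of the mice. Their sterol genes were also lower in Cre plus. Malat1-rich melanoma-like barcodes (208 and 358) had 1770 CPM of sterol UMIs in Cre plus against 2060 CPM in Cre minus, a log2 ratio of −0.22 (−0.23 to −0.20). Red cell genes stood at 153 and 370 CPM in these barcodes, and their part in the result was not tested. All 19 genes were measured, 18 were below 0 with a median of −0.24 against 0.03 over all genes, and none was more than 1.5-fold lower, against 2.56% of all measured genes. Msmo1 had a ratio of −0.31 (−0.36 to −0.27), Insig1 of −0.35 (−0.40 to −0.30) and Scd2 of −0.33 (−0.35 to −0.31). Acaca was higher in Cre plus, at 63.9 and 52.9 CPM, a ratio of 0.27 (0.19 to 0.36). Scd1, at 94.9 and 113 CPM, had a ratio of −0.25 (−0.31 to −0.18).

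Among Malat1-poor melanoma-like barcodes (283 and 468), sterol genes summed to 1640 and 2099 CPM, a log2 ratio of −0.36 (−0.39 to −0.32). Macrophage and monocyte markers summed to 12.1 and 22.2 CPM and red cell genes to 1253 and 844 CPM, and their part was not tested either. All 19 were below 0, with a median of −0.38 against −0.08 over all genes. The 1 gene more than 1.5-fold lower, against 4.40% of all measured genes, was Hmgcs1, at 82.6 and 125 CPM and a ratio of −0.60 (−0.75 to −0.44). Scd1 was at 87.2 and 91.7 CPM, with an interval of −0.24 to 0.09. Fatty acid medians were −0.12 and −0.18 in the Malat1-rich and Malat1-poor strata, and both changed sign when barcodes were thinned to 2000 UMIs. In the Malat1-poor stratum 5 barcodes held 35.3% of the Cre plus sterol UMIs, against 17.45% in Cre minus. Without the 5 barcodes with most member UMIs in each group, the sterol median of this stratum was −0.60. In that same setting the sterol median of Malat1-rich LEC-like barcodes was −0.48. Whether the same difference between the libraries enters the endothelial values was not tested, and with 1 library per genotype the library and the genotype cannot be told apart.

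**Figure D3:**
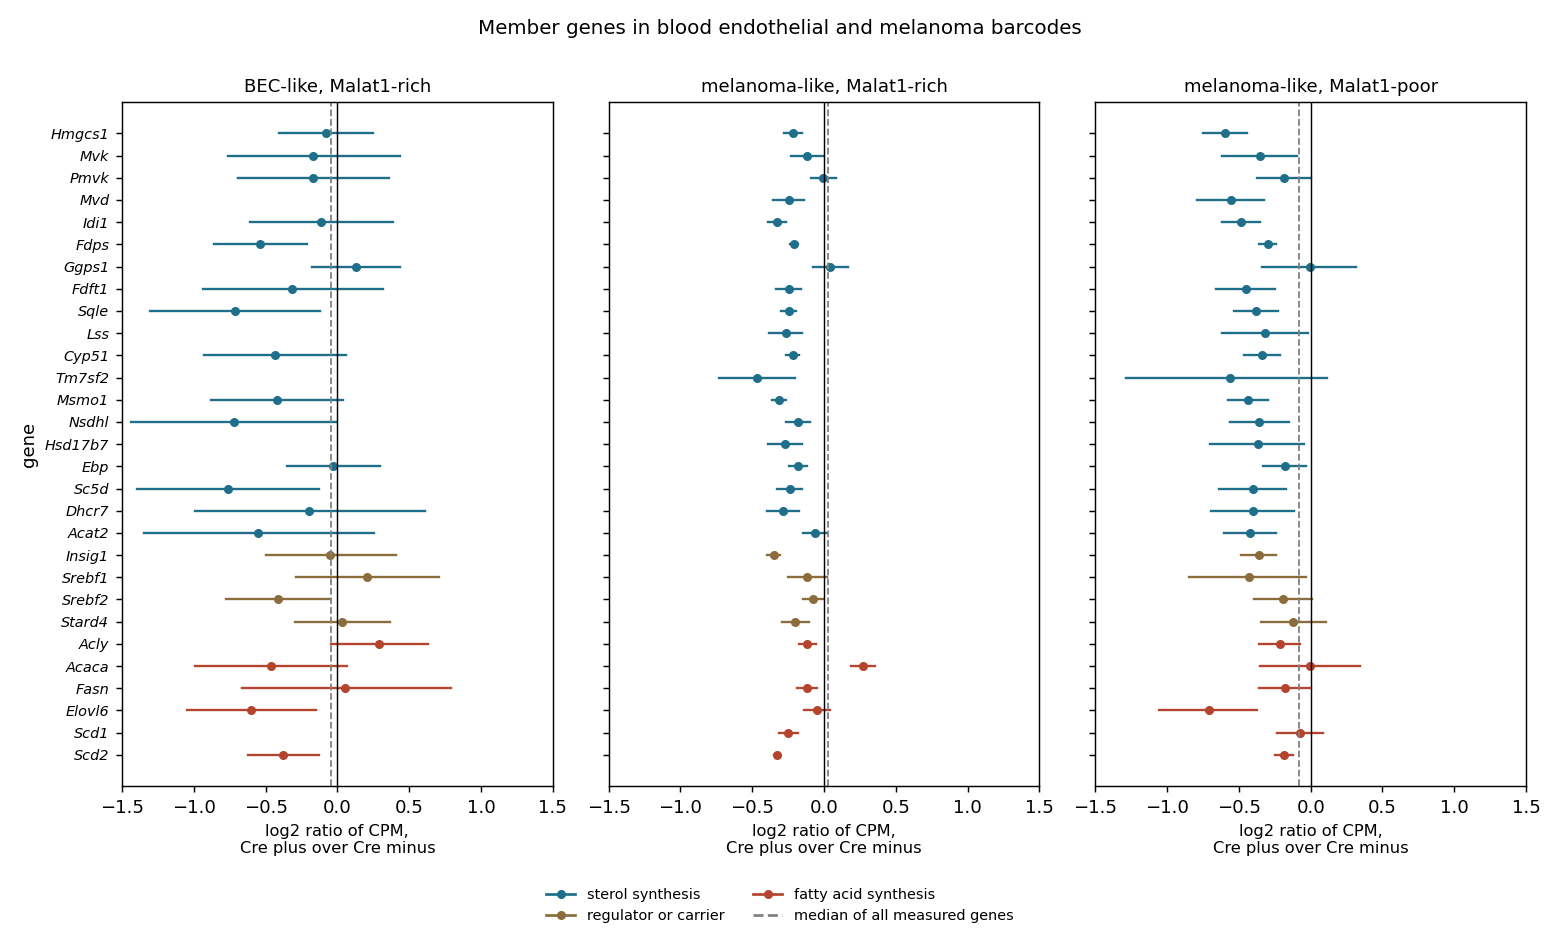
Log2 ratio of CPM, Cre plus over Cre minus, for each member in Malat1-rich BEC-like and in Malat1-rich and Malat1-poor melanoma-like barcodes, drawn as for the LEC-like barcodes but on a narrower axis. Bars are 95% counting intervals. In both melanoma panels nearly all sterol genes lie a little below 0, at medians of −0.24 and −0.38, and Acaca stands at 0.27 in the Malat1-rich one.

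Levels across classes were compared for each gene inside 1 library, where the sort and the sequencing are shared. Lymphatic barcodes had more sterol RNA than blood endothelial barcodes in both libraries. In the Malat1-rich stratum of Cre plus the median log2 ratio of LEC-like over BEC-like was 1.25 over 18 measured sterol genes, against 0.18 over all genes. Of these, 15 were more than 1.5-fold higher, against 23.2% of all measured genes. In Cre minus the median was 1.74 over 15 measured genes, and 13 were more than 1.5-fold higher, against 20.5%. Fatty acid genes had medians of 0.95 in Cre plus (5 of 6 more than 1.5-fold higher) and 1.44 in Cre minus (4 of 5), and the latter was 0.77 without the 5 barcodes with most member UMIs in each group.

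The genes differed in this contrast. Cyp51 was at 56.0 CPM in LEC-like barcodes of Cre plus against 19.3 CPM in BEC-like ones, a log2 ratio of 1.53 (1.19 to 1.90), and at 148 and 26.2 CPM in Cre minus, a ratio of 2.50 (2.06 to 2.95). Pmvk, which hardly differed between the libraries, was at 59.4 and 19.1 CPM in Cre plus and 61.1 and 21.5 CPM in Cre minus. Ebp and Ggps1 were the exceptions, with ratios of −0.38 and −0.15 in Cre plus and −0.19 and −0.02 in Cre minus. Srebf2 was higher in LEC-like barcodes, at ratios of 1.09 and 1.23, while Srebf1 had intervals that include 0 in both libraries. Scd1 differed most in Cre plus among the measured members, at 9.27 and 1.29 CPM, a ratio of 2.85 (1.59 to 4.49). In Malat1-poor barcodes of Cre minus it had 123 UMIs in LEC-like barcodes and none in BEC-like ones. Set against a floor of 3 counts over the BEC-like group, that is at least 18.5-fold higher.

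Melanoma-like barcodes had the highest summed sterol and fatty acid levels of the classes compared. In Malat1-rich barcodes the median log2 ratio of LEC-like over melanoma-like for 19 sterol genes was −1.32 in Cre plus, with 16 more than 1.5-fold lower, against 25.2% of all measured genes. In Cre minus it was −0.54, with 9 lower, against 24.9%. Hmgcs1, Pmvk and Ggps1 were above 0 in both libraries. Hmgcs1 stood at 114 CPM in LEC-like and 101 CPM in melanoma-like barcodes of Cre plus, and at 219 and 118 CPM in Cre minus. Scd2 showed a wide gap, at 123 CPM against 781 CPM in Cre plus. The smaller classes lay among the endothelial values. Macrophage-like barcodes (48 in Cre plus, 62 in Cre minus) had 479 and 528 CPM of sterol genes, and pericyte or fibroblast barcodes (29 and 19) had 715 and 953 CPM. Both sterol sums were thus lower in Cre plus. Fdps was at 65.7 and 81.8 CPM in the former and at 131 and 241 CPM in the latter. Fatty acid genes summed to 181.5 and 153.5 CPM, higher in Cre plus, and to 250 and 260 CPM. These classes were not split by Malat1, and their differences between the libraries were not tested.

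**Figure D4:**
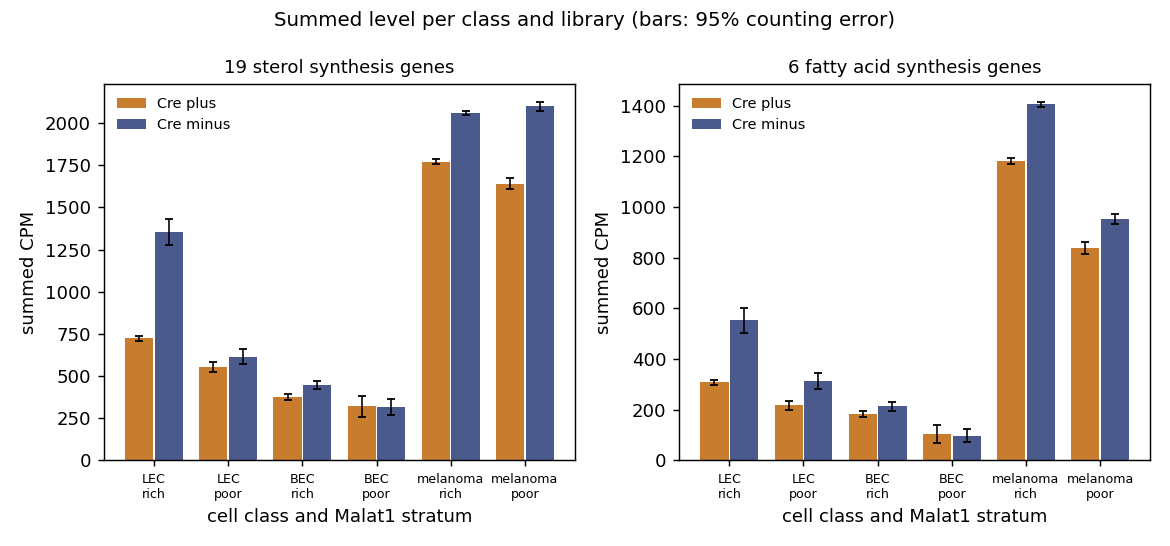
Summed CPM of the 19 sterol genes (left) and the 6 fatty acid genes (right) in each class and Malat1 stratum, for Cre plus (orange) and Cre minus (blue). Bars start at 0 and their error bars are 95% counting errors. The widest relative gap between the libraries is in Malat1-rich LEC-like barcodes, at 723 and 1354 CPM for sterol genes, and melanoma-like barcodes are highest in both panels.

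Sterol and fatty acid genes can be set side by side in each stratum. Among Malat1-rich LEC-like barcodes their medians were −0.94 and −1.10, so the routes were lower by similar amounts. Among Malat1-poor LEC-like barcodes they were 0.06 and −0.43, and the fatty acid value rests on 4 genes that range from −2.08 for Scd1 to −0.01 for Acly. Over all LEC-like barcodes together the medians were −0.32 and −0.25 against 0.29 over all genes. These pooled values mix strata that the libraries hold in unequal shares, and Scd1 was at 11.7 and 68.4 CPM in them.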

How the data were processed

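The authors deposited raw counts, whole UMI numbers per gene and barcode for 32285 genes, from 10x single-cell 3′ libraries made from sorted cells. Cell Ranger 7.0.0 and mm10 are named in the submitters' processing notes. Which gene annotation they used is not stated there. Scd1 and Scd2 were placed by their identifiers in GENCODE M21. The members and lists were chosen with earlier results of these data known.

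A barcode was kept if it had 500 or more genes and less than 10% of its UMIs from mitochondrial genes. Classes came from marker UMIs per 10000. Endothelial barcodes had at least 10 from endothelial markers and under 10 from melanoma and from other markers. They were LEC-like or BEC-like with at least 5 from 7 markers of the subtype and at least 2 times those of the other. Melanoma-like and other classes needed at least 20 of their own markers. Of LEC, BEC and in-between barcodes, 67 and 16 lay near the subtype limit, with 1 to 4 times as many LEC as BEC marker UMIs. No doublet caller was run, and 49 and 45 barcodes past the limits of several classes were left out as mixed.

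UMIs were summed per class, Malat1 stratum and library. Ratios have exact conditional binomial intervals and shares exact Clopper-Pearson intervals, both at 95%. The intervals cover counting error only. Those of ratios were checked on simulated counts. The simulated counts were independent draws, so the check does not cover UMIs that gather in a few barcodes. Where a group had no UMI, a floor of 3 counts over the group gave the bound of a fold or, as 3 barcodes of the group, of a share. All members are accounted for. Those described in full had an interval off 0 in an endothelial class or were Scd1, Scd2, Srebf1, Srebf2 or Insig1, and pathway genes are named where past 1.5-fold with an interval off 0. Some genes of the pathway list count in its totals but are not reported here by name. The choice of promoters shown was made with the ratios and letters known. Of 16 alternative settings, 12 varied the filters, the gate, the Malat1 limit, the scaling, the depth or the UMI minimum, and 4 that leave out deep or member-rich barcodes or restrict depth were chosen after seeing the data. Tools were Python 3.11.15, numpy 2.4.6, scipy 1.17.1, pandas 2.3.3 and, for the clustering alternative, leidenalg 0.10.2 on igraph 0.11.9 with scikit-learn 1.9.0.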

Additional observations from a re-analysis of the deposited data

Results flagged for a closer look

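Acaca, which makes malonyl-CoA, went in opposite directions in the Malat1-rich barcodes of 2 cell classes of the same libraries. Among Malat1-rich barcodes its log2 ratio of Cre plus over Cre minus was −1.05 (counting interval −1.43 to −0.66) in LEC-like barcodes, with 36.9 and 76.4 CPM, and 0.27 (0.19 to 0.36) in melanoma-like barcodes, with 63.9 and 52.9 CPM. The rise was limited to that melanoma-like stratum. In Malat1-poor melanoma-like barcodes all 6 fatty acid genes, Acaca among them, had ratios between −0.71 and −0.003. In Malat1-rich BEC-like barcodes Acaca was at 17.0 and 23.4 CPM, a ratio of −0.46 (−0.99 to 0.07). With 1 library per genotype the difference between the classes was not tested.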

How the results depend on the processing

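No paired analysis was possible because the labels carry no replicate numbers and each genotype has 1 library. Of 293 recomputed list medians and counts, 276 stayed within the interval or 1.5-fold range of the reported value. Another 12 moved out of it and 5 were reversed. Staying in that range does not fix the sign of a value near 0. The sterol median of Malat1-poor LEC-like barcodes kept its sign in only 6 of 14 alternatives. In Malat1-rich LEC-like barcodes the sterol median was below 0 in all 16 alternatives and the fatty acid median in all 15 that gave a value. The added alternatives were chosen after seeing the data. Without the 5 barcodes with most member UMIs in each group, the LEC-like sterol median was −0.48 with 8 genes past 1.5-fold, and the fatty acid median of LEC-like over BEC-like in Cre minus was 0.77. Thinning to 2000 UMIs left 5 sterol genes measured, 3 of them past 1.5-fold. For these alternatives the share of all genes past 1.5-fold is not given beside the counts. Thinned melanoma-like values were −0.37 (sterol, Malat1-rich), 0.18 (fatty acid, Malat1-rich) and 0.089 (fatty acid, Malat1-poor), and the mean over barcodes gave 0.047 for fatty acid genes in the Malat1-rich ones. Without cycling barcodes the Malat1-rich melanoma-like medians were −0.32 (sterol) and −0.20 (fatty acid), and the BEC-like fatty acid median was −0.68. That median was −0.67 without the 5 deepest barcodes. For Malat1-rich over Malat1-poor LEC-like barcodes, values relative to all genes were −0.24 (sterol) and −0.052 (fatty acid) in Cre plus and 0.58 and −0.11 in Cre minus, and the mean over barcodes gave 1.21 for fatty acid genes in Cre plus. Apart from the shift of all genes and the fewer genes left by thinning, the cause was not tested. The 39 Cre minus barcodes and their 850616 UMIs set the precision of the Malat1-rich LEC-like ratios.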
